A study of Mus musculus with 17 samples.

Results

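The 32 genes examined here carry out or control the burning of fatty acids: the peroxisome proliferator-activated receptors (PPARs), their coactivator, and genes of fatty acid handling and mitochondrial beta-oxidation, many of them known PPAR targets. Members were the probes whose RefSeq transcript belonged to 1 of the 32 named genes, which gave 42 of 55681 probes on the array. Of the 32 genes, 31 were measured, out of 21405 genes measured in all. Cpt1b, the muscle form of the enzyme that hands fatty acids to carnitine, was not: its better probe rose clearly above background on 2 of 17 arrays and its other probe on 0.

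The tissue was forestomach, the squamous-lined fore part of the mouse stomach, from male MutaTMMouse animals aged 24 to 26 weeks. Mice were given olive oil alone (control, 5 arrays) or the polycyclic aromatic hydrocarbon benzo(a)pyrene (BaP) in olive oil at 25, 50 or 75 mg/kg per day (4 arrays each), by gavage for 28 days. Forestomachs were collected 72 hours after the last dose, and RNA was taken from random sections. All groups therefore shared the strain, the sex, the oil and the time of collection. Each array carried Cy5-labelled RNA of 1 animal and Cy3-labelled Universal Mouse Reference RNA, pooled from 11 mouse cell lines. Every value is a log2 ratio of Cy5 over Cy3; differences between groups are differences of such ratios, and the level of one probe is not set against another's.

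As background, cells take up fatty acids through carriers such as CD36, store them in perilipin-coated droplets, and move them into mitochondria through the carnitine shuttle. Beta-oxidation then shortens the chain in repeated rounds of dehydrogenation, hydration, dehydrogenation and thiolysis, and the electrons pass through electron transfer flavoprotein to the respiratory chain. PPARs are nuclear receptors that bind fatty acids, pair with the retinoid X receptor, and switch on many of these genes, most strongly in fasting liver, heart, muscle and fat.

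Most members had lower fitted values at 50 and 75 mg/kg, and the members were split about evenly at 25 mg/kg. Against control, 30 of 31 had a fitted difference below 0 at 75 mg/kg (52% of all genes did), and the median difference was -0.35, against -0.01 over all genes. At 50 mg/kg the median was -0.25, with 30 of 31 below 0 (52.1% of all genes), and without replicate 12 at that dose it was -0.14, with 29 of 31 below 0. At 25 mg/kg the median was 0.00, with 15 of 31 below 0 (47.7% of all genes). Differences at 75 mg/kg ranged from -2.00 for Angptl4 to 0.18 for Ppard.

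In the test of single genes (limma, Benjamini-Hochberg adjustment over all genes, threshold 0.05), 4 members fell at 75 mg/kg and none rose: Angptl4, Plin2, Acadm and Decr1. Over all genes, 0.21% fell and 0.892% rose. At an unadjusted p under 0.05, 17 members were lower, as were 4.38% of all genes. At 50 mg/kg 0 members passed and 9 were lower unadjusted (2.94% of all genes), with 0.00467% of all genes called lower and 0.042% higher. At 25 mg/kg 0 members passed and 0 did so unadjusted (1.16% of all genes were lower unadjusted), and 0% of all genes were called lower and 0.014% higher. For 75 against 25 mg/kg 0 members passed and 16 were lower unadjusted (2.45% of all genes), with 29 of 31 below 0 (52.7% of all genes), and 0.028% of all genes called lower and 0.0327% higher. A straight line on dose, which uses all 17 arrays, called 10 members lower and none higher, against 0.299% of all genes lower and 1.05% higher. Unadjusted, 20 members were lower along the line, as were 5.27% of all genes. Those called after adjustment were Angptl4, Plin2, Acadm, Acadl, Acaa2, Eci1, Decr1, Etfa, Etfb and Acot1. The comparisons with control share the control arrays and are not independent.

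The arrays lay on 3 slides, each holding control and treated animals, so slide could be fitted. With slide as a fixed block, 10 members fell at 75 mg/kg and 0.439% of all genes were called lower; with slide as a random block the values were 11 members and 0.388%. Both sets contained the 4 above, and the count over all genes rose too, from 45 lower to 94 and 83. The members gained by both blocks were Pdk4, Acaa2, Eci1, Etfa, Etfb and Acot1, with Acadl added by the random block. Along the dose line either block called 12 members, the 10 above with Pdk4 and Eci2, against 0.747% (fixed) and 0.654% (random) of all genes called lower. Within slides, the median member difference between 75 mg/kg and control was -0.30 on slide 1, -0.35 on slide 2 and -0.50 on slide 3. At 50 mg/kg it was -0.30, -0.23 and -0.29, and at 25 mg/kg 0.15, -0.08 and -0.28. On slide 3, with 1 array per group, the values at 25 and 50 mg/kg were thus nearly equal, and at 25 mg/kg the slides differed in direction (4, 22 and 27 of 31 members below 0). At 75 mg/kg, slides 1 and 3 each held 1 array, replicates 17 and 20, both high in glandular stomach markers (next paragraph). The 1 control on slide 3, replicate 5, was the highest control in its median over members (0.26 above the control mean).

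Some arrays stood apart in the RNA of other parts of the stomach. The summed Cy5 signal of glandular stomach markers (such as Atp4a, Gif and Tff1) was 752 to 7238 on control arrays and higher than that on 4 treated arrays. It was 524067 in replicate 7 and 17260 in replicate 9 at 25 mg/kg, and 100307 in replicate 17 and 35041 in replicate 20 at 75 mg/kg. The control value of 7238 came from replicate 5 alone, and control replicates 1 to 4 lay between 752 and 1144. All 50 mg/kg arrays (1653 to 6278), replicate 6 at 25 mg/kg (1253) and replicate 18 at 75 mg/kg (1869) lay above control replicates 1 to 4. The 8 measured markers had a median difference of 1.12 at 75 mg/kg and 0 passed. Without the 4 treated arrays above all controls (replicates 7, 9, 17 and 20), 2 arrays remained at 25 and 2 at 75 mg/kg. Then 0 members passed at 75 mg/kg, when 8 genes of the whole table did. The median member difference was then -0.34 at 75 mg/kg and -0.25 at 50 mg/kg, with 29 and 30 of 31 below 0, and Angptl4 and Acot1 still fell along the dose line. Squamous markers (Krt5, Krt14, Trp63 and others) were present throughout, at a summed Cy5 signal of 471401 to 599549 on control arrays and 424502 to 583519 at 75 mg/kg.

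**Figure D1:**
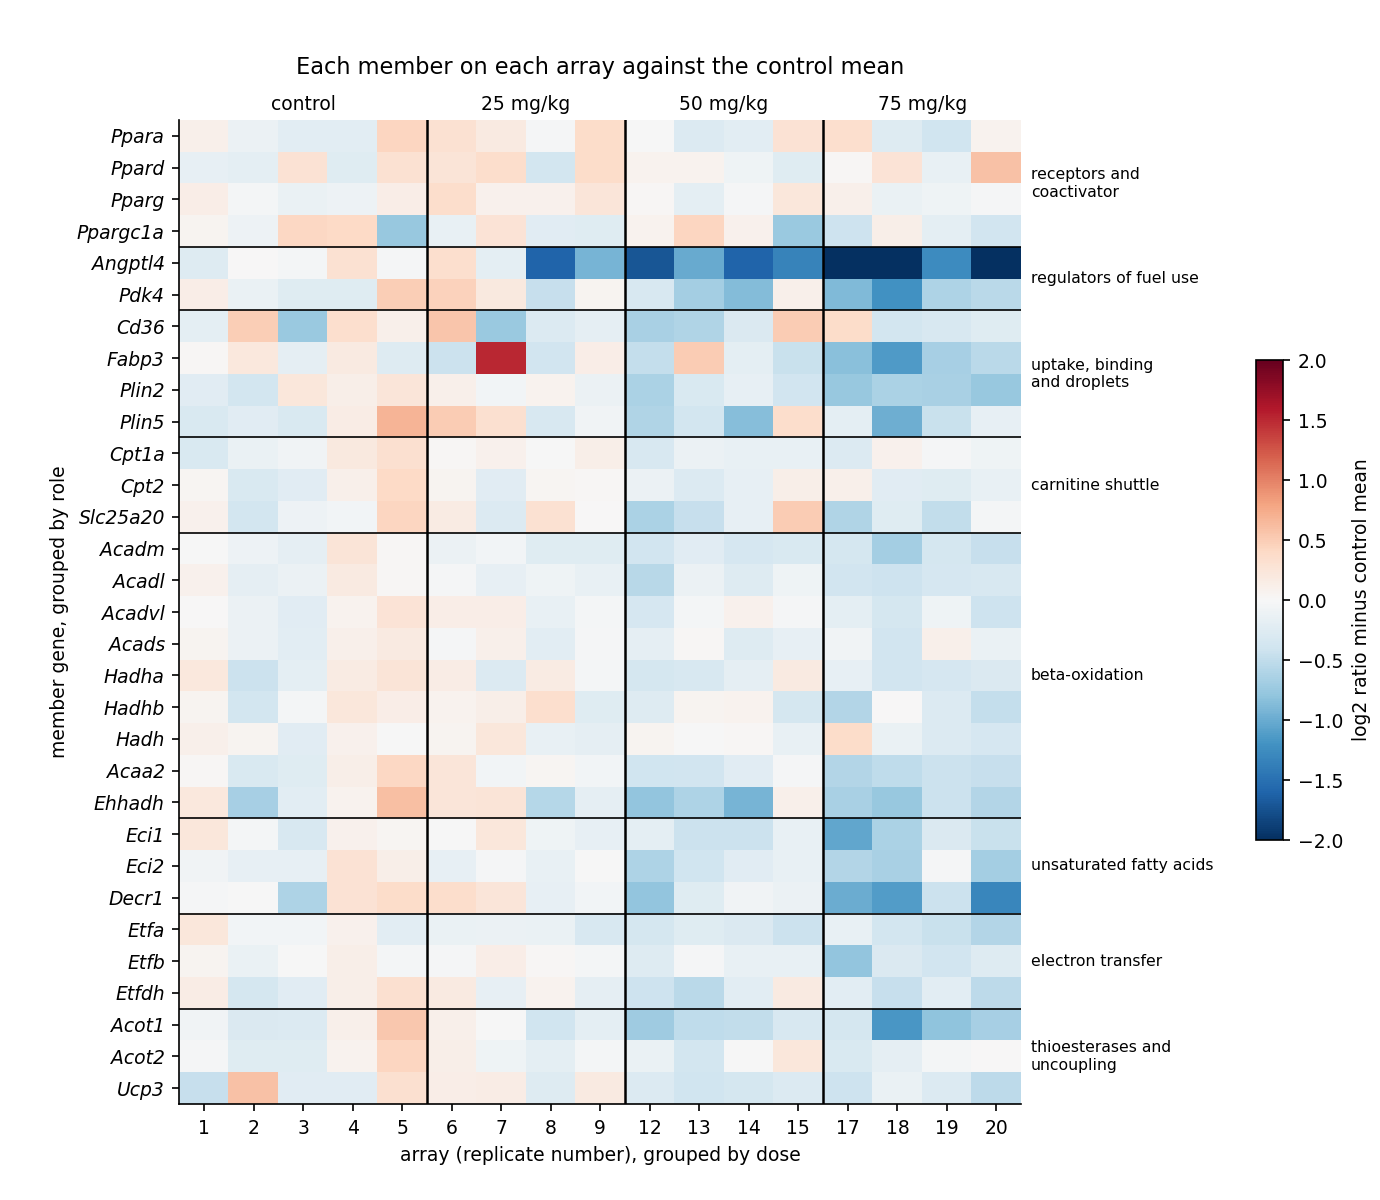
Colour gives the log2 ratio of each of 31 members (rows, grouped by role) on each of 17 arrays (columns, by dose and replicate number) minus that gene's control mean, blue for lower; the colour scale ends at -2 and 2. Most members are blue at 50 and 75 mg/kg, Angptl4 most deeply, while the receptors at the top are pale in all groups; Fabp3 stands out high in replicate 7 at 25 mg/kg.

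The receptors themselves were among the members that differed least. Ppara, the receptor best known for driving fatty acid oxidation in liver, differed at 75 mg/kg by -0.06 ± 0.17 (standard error of the fit, n = 4 against 5, as for all differences below). Pparg, the master regulator of fat cells, differed by -0.04 ± 0.10, and Ppard, a receptor widely expressed in epithelia, by 0.18 ± 0.18. Ppargc1a, a coactivator that promotes mitochondrial growth, differed by -0.22 ± 0.24. None of the 4 passed in any comparison, and when arrays were scaled by their medians alone, without loess, the differences of Ppara, Pparg and Ppargc1a turned to 0.23, 0.25 and 0.01. On single arrays Ppara lay between 4.34 and 5.00 in control and between 4.16 and 4.89 at 75 mg/kg. Its control and treated arrays overlapped throughout. The 3 Ppara probes differed by -0.14 to 0.0004 at that dose. Over the other settings the difference of Ppara there was -0.29 to 0.23 (lowest adjusted p = 0.336).

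Among the secreted and enzymatic regulators of fuel use, Angptl4 had the largest difference of all members. It encodes a secreted inhibitor of lipoprotein lipase, induced by PPARs, fasting and low oxygen. Its log2 ratios in control replicates 1 to 5 were 0.55, 0.81, 0.77, 1.12 and 0.78. At 25 mg/kg they were 1.13, 0.61, -0.79 and -0.13, at 50 mg/kg -0.91, -0.20, -0.79 and -0.54, and at 75 mg/kg -1.41, -1.35, -0.45 and -1.55. Every array at 50 and 75 mg/kg lay below every control array. At 25 mg/kg the arrays split: replicates 6 and 7 lay in or near the control range, and replicates 8 and 9 lay below it. Angptl4 fell at 75 mg/kg by 2.00 ± 0.31 on the log2 scale, a level 75.0% below control (limma adjusted p = 0.0038). It fell by 0.68 per 25 mg/kg along the dose line (adjusted p = 0.0006). The differences at 50 mg/kg (-1.42, adjusted p = 0.177) and 25 mg/kg (-0.60) did not pass. Within slides the difference at 75 mg/kg was -2.09, -1.85 and -2.33, and without the 4 arrays high in glandular markers it was -1.71 (adjusted p = 0.207).

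Pdk4, the kinase that shuts off pyruvate dehydrogenase when fat is burned, did not pass. Its log2 ratios were 3.13 to 3.87 in control (median 3.25) and 2.50, 2.17, 2.77 and 2.85 at 75 mg/kg. All 4 arrays at that dose lay below the control range. The difference was -0.81 ± 0.22 (adjusted p = 0.115), and the slope on dose had an adjusted p of 0.0554. With slide as a fixed or random block, Pdk4 passed at 75 mg/kg. It passed there in 4 of 12 other settings, these blocks included, and in 0 of 17 fits that left out 1 array. Over the other settings the difference was -0.88 to -0.49 (highest adjusted p = 0.475).

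Of the genes of uptake, binding and droplets, Plin2 fell, and Cd36, Fabp3 and Plin5 did not pass. Plin2 encodes the perilipin that coats lipid droplets in most cell types. Its log2 ratios in control were 0.75, 0.60, 1.19, 1.09 and 1.21, at 25 mg/kg 1.08, 0.92, 1.05 and 0.86, at 50 mg/kg 0.33, 0.67, 0.81 and 0.59, and at 75 mg/kg 0.21, 0.34, 0.33 and 0.21. The 4 arrays at 75 mg/kg were nearly level with one another and below every control; those at 50 mg/kg overlapped the lower controls, and those at 25 mg/kg lay within the control range. Plin2 fell at 75 mg/kg by 0.70 ± 0.13 (adjusted p = 0.0110) and by 0.24 per 25 mg/kg (adjusted p = 0.0046). The difference at 75 mg/kg was -0.46, -0.81 and -1.01 within slides 1 to 3. With slide as a block it also passed for 75 against 25 mg/kg, where the fit without slide gave -0.70 (adjusted p = 0.0788). Under median scaling alone Plin2 differed by -0.31 at 75 mg/kg (adjusted p = 0.576), with a slope of -0.13 (adjusted p = 0.544). Its call at 75 mg/kg was also lost with the scanner software's processed signals (-0.56, adjusted p = 0.144) and with the compared groups alone (adjusted p = 0.0579). The processed signals lost the slope as well (-0.19, adjusted p = 0.0764).

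Fabp3, a cytosolic fatty acid binding protein of muscle, differed at 75 mg/kg by -0.80 ± 0.31 (adjusted p = 0.369). Its control arrays lay between -1.64 and -1.16 and those at 75 mg/kg between -2.51 and -1.92, so the groups did not overlap. Replicate 7 at 25 mg/kg, the array highest in glandular stomach markers, had 0.13 and stood above all others. Without that array the adjusted p at 75 mg/kg was 0.0703. Fitted with control and 75 mg/kg arrays alone, Fabp3 passed (adjusted p = 0.0382). Its second probe gave -0.50. Cd36, the fatty acid translocase, differed by -0.14 ± 0.29, with control arrays between 0.11 and 1.35 and those at 75 mg/kg between 0.49 and 1.22. Plin5, the perilipin that ties droplets to mitochondria, differed by -0.45 ± 0.26. Its probe was clearly above background in Cy5 on 13 of 17 arrays, including 1 of 4 at 50 mg/kg. In Cy3, the reference, it was so on 0 of 17, so its ratios have a denominator near background. Over the other settings the difference was -2.44 to -0.37.

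**Figure D2:**
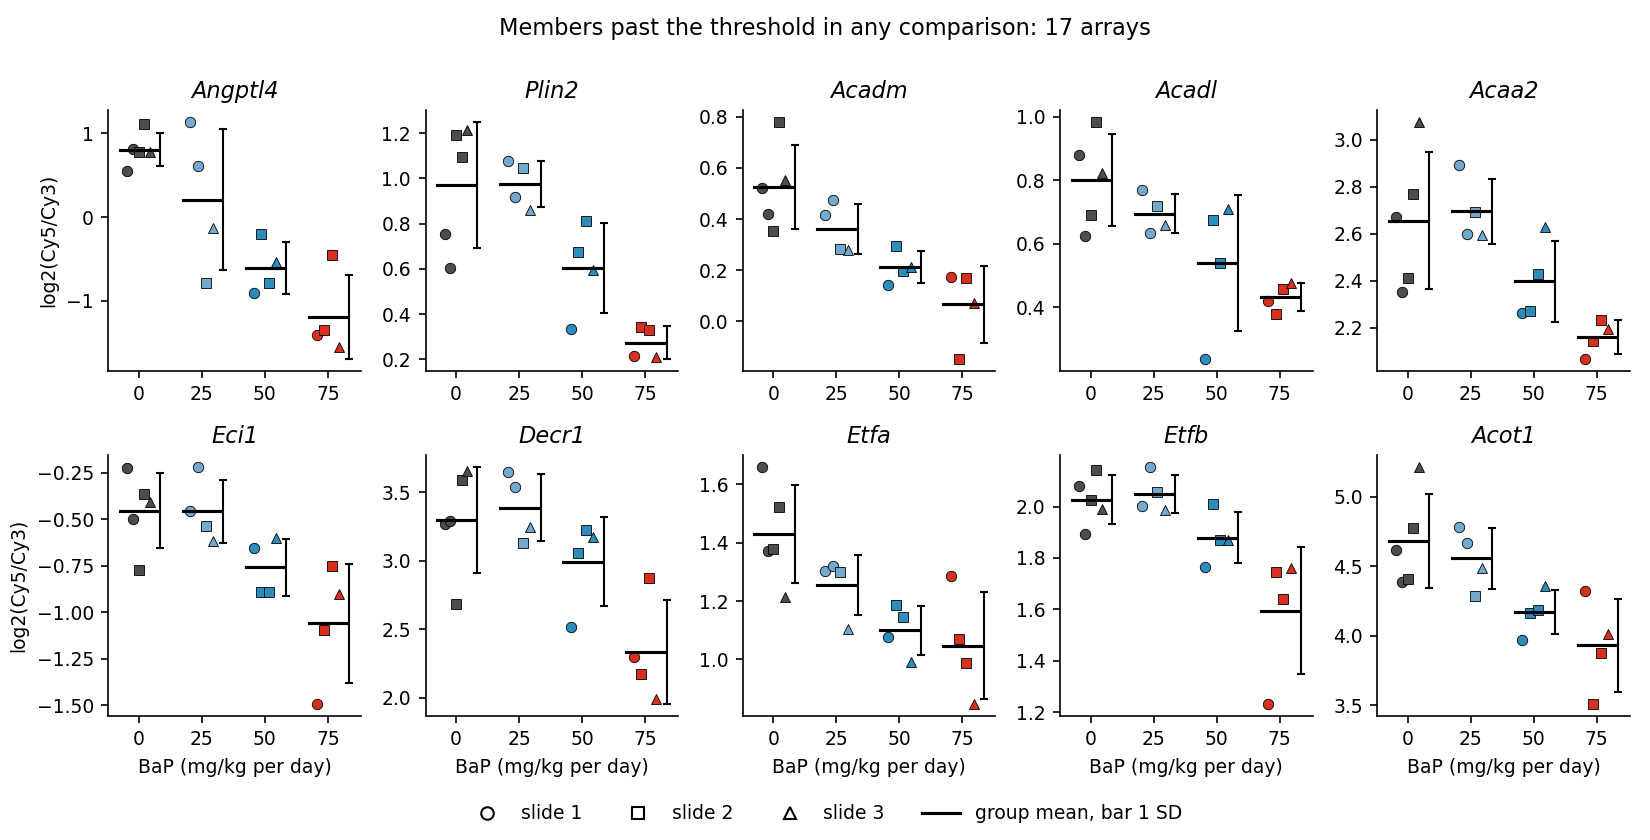
Each panel shows log2(Cy5/Cy3) of 1 of the 10 members past the threshold in any comparison, against BaP dose; points are single arrays (marker by slide), lines are group means and bars 1 SD (5 control arrays, 4 per dose). Vertical axes differ between panels and do not start at 0; Angptl4 spans 1.13 to -1.55, and in all panels the lowest group mean is at 75 mg/kg.

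The carnitine shuttle, which carries long chains into the mitochondrion, had 3 measured members and none passed. Cpt1a, the rate-limiting step on the outer membrane, differed at 75 mg/kg by -0.08 ± 0.12, and Cpt2, its inner-membrane partner, by -0.13 ± 0.13; both turned above 0 (0.26 and 0.23) under median scaling alone. Slc25a20, the carrier between them, differed by -0.35 ± 0.21. The control and 75 mg/kg arrays of Cpt1a overlapped, at 0.92 to 1.55 and 0.95 to 1.32.

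The 9 genes of the beta-oxidation cycle were all below 0 at 75 mg/kg in the fitted difference, with a median of -0.33, and 1 of them fell. Of these, 3 fell along the dose line: Acadm, Acadl and Acaa2. Acadm encodes medium-chain acyl-CoA dehydrogenase, the enzyme missing in the commonest inborn error of beta-oxidation. Its log2 ratios in control were 0.52, 0.42, 0.35, 0.78 and 0.55, at 25 mg/kg 0.41, 0.47, 0.28 and 0.28, at 50 mg/kg 0.14, 0.29, 0.20 and 0.21, and at 75 mg/kg 0.17, -0.15, 0.17 and 0.07. Both upper dose groups lay wholly below the controls, and the 25 mg/kg group overlapped them. Acadm fell by 0.46 ± 0.10 at 75 mg/kg (adjusted p = 0.0264) and by 0.15 per 25 mg/kg (adjusted p = 0.0076). The call at 75 mg/kg was lost without control replicate 1, control replicate 4, or replicate 18 or 20 at 75 mg/kg (highest adjusted p = 0.121), and the slope passed in each of the 17 fits that left out 1 array. Under median scaling alone the difference was -0.08 (adjusted p = 0.861) and the slope -0.04 (adjusted p = 0.773). The call at 75 mg/kg was also lost with the Cy5 channel alone (adjusted p = 0.0816) and with the compared groups alone (adjusted p = 0.156).

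Acadl encodes long-chain acyl-CoA dehydrogenase. Its control arrays lay between 0.62 and 0.98 and its 75 mg/kg arrays at 0.42, 0.38, 0.46 and 0.48, below all controls. Acadl fell by 0.12 per 25 mg/kg (adjusted p = 0.0420), and its difference at 75 mg/kg was -0.37 ± 0.10 (adjusted p = 0.115). Acaa2, the mitochondrial thiolase that ends each round, had control arrays between 2.35 and 3.07 and 75 mg/kg arrays at 2.07, 2.14, 2.23 and 2.20. These 4 again lay below all controls and close together. Acaa2 fell by 0.17 per 25 mg/kg (adjusted p = 0.0498), with a difference at 75 mg/kg of -0.50 ± 0.13 (adjusted p = 0.0981). The slope of Acadl kept its call in 4, and that of Acaa2 in 3, of the 17 fits that left out 1 array. With the scanner software's processed signals the Acadl slope was -0.08 (adjusted p = 0.454). The Acaa2 slope was lost with the authors' deposited log2 values (adjusted p = 0.0791) and with the Cy5 channel alone (adjusted p = 0.0575). It was also lost without the filter on dim probes (adjusted p = 0.0627).

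The remaining cycle genes did not pass. Acadvl and Acads, the dehydrogenases for very long and short chains, differed at 75 mg/kg by -0.26 and -0.12. Hadh, the short-chain hydroxyacyl-CoA dehydrogenase, differed by -0.09. Ehhadh, the bifunctional enzyme of peroxisomes and a classical PPAR alpha target, differed by -0.61 ± 0.24 (adjusted p = 0.389). Its control arrays spread from 0.63 to 1.90, and its 75 mg/kg arrays, at 0.55 to 0.87, overlapped the lowest of them. Hadha and Hadhb encode the 2 subunits of the trifunctional protein, and their difference from control at 75 mg/kg was -0.29 ± 0.15 and -0.33 ± 0.15; neither passed. Under median scaling alone, the differences of Acadvl, Acads, Hadh, Hadha and Hadhb lay above 0, between 0.04 and 0.29.

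Hadha and Hadhb lie head to head on chromosome 5, with starts 273 bases apart, so that 1 stretch lies upstream of both. It is shown because it is the sequence these partners share: RefSeq, GRCm38.p6, chr5:30155003-30155230, plus strand (the sense of Hadhb), 57% G or C, with its 1 GC box (GGGCGG, searched on both strands) in capitals. A GC box was in 35.7% of all 300-base promoter windows.
Hadha and Hadhb: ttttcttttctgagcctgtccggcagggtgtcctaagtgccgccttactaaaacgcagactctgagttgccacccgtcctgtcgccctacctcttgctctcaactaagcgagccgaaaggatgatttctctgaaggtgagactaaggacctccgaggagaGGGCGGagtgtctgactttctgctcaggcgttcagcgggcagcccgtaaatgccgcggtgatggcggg

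Unsaturated fatty acids need auxiliary enzymes that move or remove double bonds, and all 3 members of this kind were lower at 75 mg/kg in the fitted difference; 1 fell there, and Eci1 and Decr1 fell along the dose line. Decr1 encodes the mitochondrial dienoyl-CoA reductase. Its log2 ratios in control were 3.27, 3.29, 2.68, 3.59 and 3.66, at 25 mg/kg 3.65, 3.54, 3.13 and 3.25, at 50 mg/kg 2.51, 3.06, 3.22 and 3.17, and at 75 mg/kg 2.30, 2.18, 2.87 and 1.99. At 75 mg/kg, 3 of the 4 arrays lay below all controls, and replicate 19 lay above control replicate 3. Decr1 fell by 0.96 ± 0.21 at 75 mg/kg (adjusted p = 0.0350) and by 0.32 per 25 mg/kg (adjusted p = 0.0359). Its second probe gave -0.70 (adjusted p = 0.234), and the call at 75 mg/kg was lost without control replicate 1, 4 or 5, or replicate 17, 18 or 20 (highest adjusted p = 0.137). That call was also lost with the compared groups alone (adjusted p = 0.109) and with array weights (adjusted p = 0.0710). The slope was lost with array weights (adjusted p = 0.0515) and without the filter on dim probes (adjusted p = 0.0527). The slope was also lost without control replicate 1, 4 or 5, or replicate 9, 12, 17, 18 or 20.

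Eci1, an enoyl-CoA isomerase, had control arrays at -0.23, -0.50, -0.77, -0.37 and -0.41 and 75 mg/kg arrays at -1.49, -1.09, -0.75 and -0.90. The groups met only at replicate 19 and control replicate 3. Eci1 fell by 0.21 per 25 mg/kg (adjusted p = 0.0263), with a difference at 75 mg/kg of -0.61 ± 0.14 (adjusted p = 0.0526). Within slides 1 to 3 that difference was -1.13, -0.35 and -0.50. The Eci1 slope was lost without control replicate 1 or 4, or replicate 17, 18 or 20. It was also lost under median scaling alone (-0.10, adjusted p = 0.603) and without the arrays high in glandular markers (-0.16, adjusted p = 0.185). Eci2, the isomerase found in peroxisomes as well as mitochondria, missed the threshold, at -0.49 ± 0.14 (adjusted p = 0.153; 0.0554 for the slope). With slide as a fixed or random block its slope passed (adjusted p = 0.0278 and 0.0243). The slope of Eci2 did not pass under median scaling alone or with the scanner software's processed signals.

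Electron transfer flavoprotein, made of the products of Etfa and Etfb, takes electrons from the acyl-CoA dehydrogenases and gives them to the dehydrogenase encoded by Etfdh. Etfa and Etfb fell along the dose line. Etfa lay between 1.22 and 1.66 in control, at 1.08, 1.19, 1.15 and 0.99 at 50 mg/kg and at 1.29, 1.07, 0.99 and 0.85 at 75 mg/kg. All 50 mg/kg arrays were below the controls, while replicate 17 at 75 mg/kg was not. Etfa fell by 0.13 per 25 mg/kg (adjusted p = 0.0422), and its difference at 75 mg/kg was -0.38 ± 0.10 (adjusted p = 0.113), which turned to 0.02 under median scaling alone; its second probe gave -0.14 (adjusted p = 0.860).

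Etfb lay between 1.89 and 2.14 in control, the narrowest control spread of any member (SD 0.09), and at 1.23, 1.74, 1.64 and 1.76 at 75 mg/kg. Every array at 75 mg/kg was below every control, replicate 17 by the most. Etfb fell by 0.14 per 25 mg/kg (adjusted p = 0.0486), with a difference at 75 mg/kg of -0.43 ± 0.10 (adjusted p = 0.0573). Under median scaling alone these were -0.02 (adjusted p = 0.945) and -0.01 (adjusted p = 0.982). The slopes of Etfa and Etfb kept their calls in 4 and 2 of the 17 fits that left out 1 array. With the scanner software's processed signals both slopes were lost (adjusted p = 0.149 and 0.213). The Etfa slope was also lost with the mean of its probes (adjusted p = 0.319). That of Etfb was lost with the authors' deposited log2 values (adjusted p = 0.0601) and without the filter on dim probes (adjusted p = 0.0559). Etfdh differed by -0.35 ± 0.16 at 75 mg/kg and did not pass.

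Thioesterases release free fatty acids from coenzyme A, and Acot1, in the cytosol, is a strong PPAR alpha target in liver. Its log2 ratios in control were 4.61, 4.39, 4.41, 4.77 and 5.21, at 50 mg/kg 3.97, 4.16, 4.18 and 4.36, and at 75 mg/kg 4.32, 3.51, 3.88 and 4.01. All arrays of both dose groups lay below all controls, though the margin between 4.36 and 4.39 was small. Acot1 fell by 0.26 per 25 mg/kg (adjusted p = 0.0154), with a difference at 75 mg/kg of -0.75 ± 0.18 (adjusted p = 0.0504). Within slides that difference was -0.18, -0.90 and -1.20. Acot2, its mitochondrial neighbour 21641 bases away on chromosome 12, differed by -0.13 ± 0.14; they are related genes whose probe sequences were not compared, so whether either probe also binds the other transcript was not tested and the assignment is uncertain. Ucp3, a mitochondrial carrier raised by fatty acids in muscle, differed by -0.34 ± 0.17 and did not pass. The Ucp3 probe used was clearly above background on 17 of 17 arrays in both Cy5 and Cy3. The gene's other probe was so on 0 of 17 in either channel, so the assignment of this value to Ucp3 is uncertain.

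**Figure D3:**
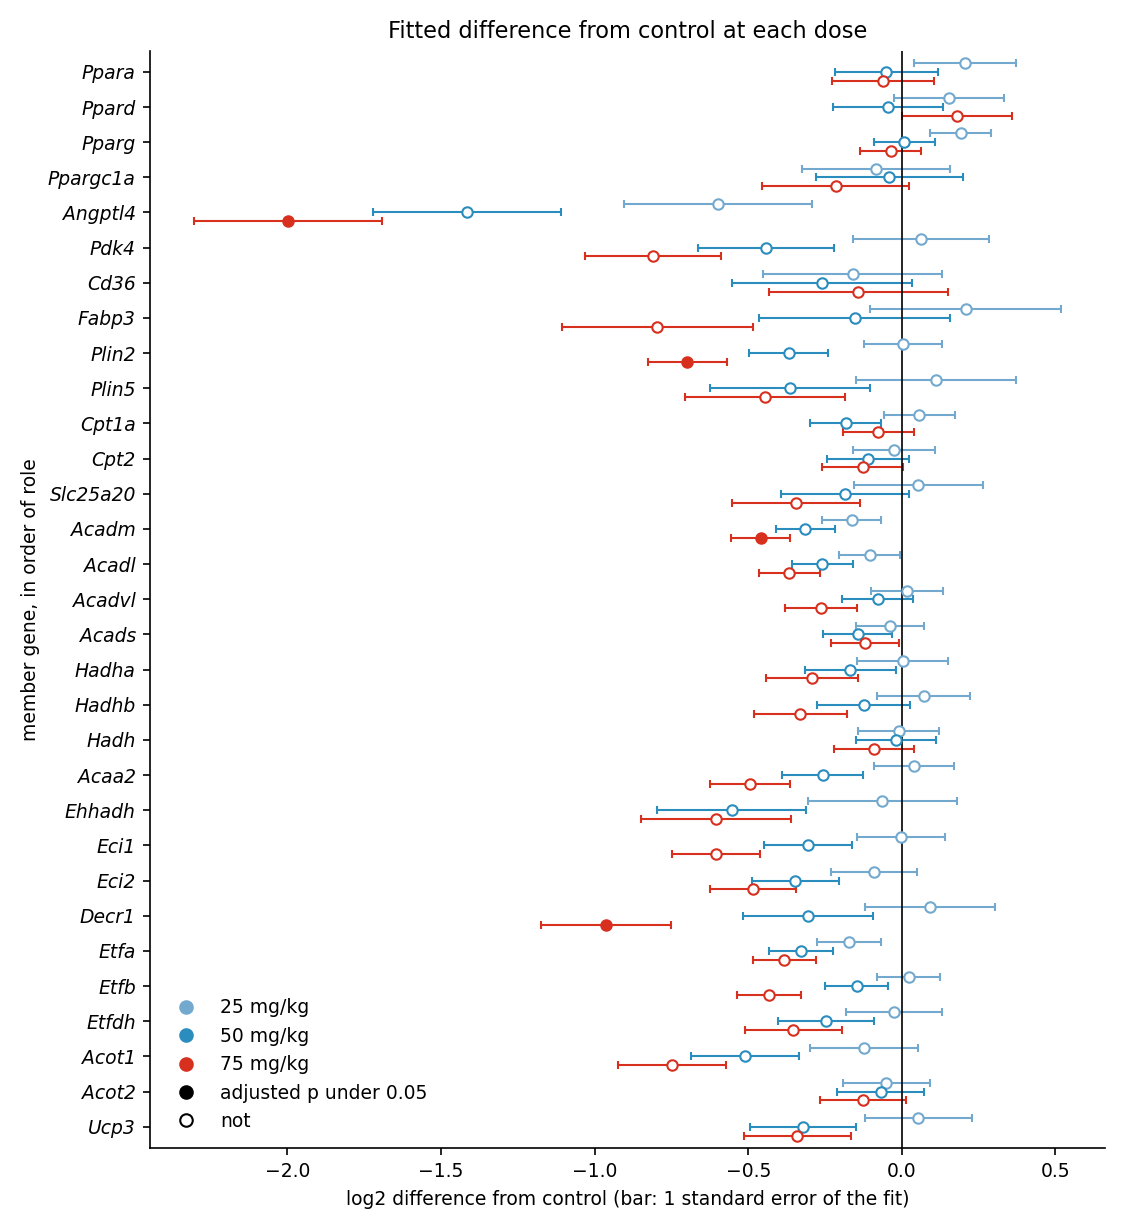
Points give the fitted log2 difference from control at 25, 50 and 75 mg/kg for 31 members in order of role, bars 1 standard error of the fit, filled where the adjusted p is under 0.05. The 4 filled points are Angptl4, Plin2, Acadm and Decr1 at 75 mg/kg; the values at 25 mg/kg lie around 0, with Angptl4 lowest at -0.60.

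Promoter sequences could be matched for 28 of the 32 genes in the RefSeq table (GRCm38.p6; 250 bases before to 50 after each start; 31 windows). The half-site that PPARs and related nuclear receptors recognise, AGGTCA, was searched on both strands. It was in 10 of 31 member windows (32.3%), against 16.3% of all 32851 windows. Pparg and Plin5 each gave more than 1 of these 10 windows, so the share is by window and not by gene. A pair of half-sites in direct repeat spaced by 1 base, the arrangement PPARs prefer, were in 0 member windows, exactly or with 1 mismatch, and in 0.0396% and 0.554% of all windows. With shares this low, 0 of 31 windows does not set the members apart from other genes. Sequence outside these windows was not searched. Of the 10 members called in any comparison, Angptl4, Acaa2 and Decr1 had no window and were not searched. Of the 7 with a window, Plin2 and Acadm held a half-site. Both are shown with 3 members that did not pass, read along the gene's strand with the half-site or its reverse complement in capitals, because they place the letters beside the values above. They lie at chr4:86670260-86670289, chr3:153944875-153944893, chr11:70015498-70015527, chr19:3323195-3323224 and chr5:17836107-17836136, in that order.
Plin2: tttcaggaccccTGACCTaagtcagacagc
Acadm: gTGACCTtcgggctccggt
Acadvl: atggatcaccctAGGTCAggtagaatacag
Cpt1a: cagtttccttacTGACCTcctccccgcagc
Cd36: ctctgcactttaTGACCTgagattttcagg
A match is a description of these letters and not a binding site. Plin2 and Acadm fell at 75 mg/kg, and Acadvl, Cpt1a and Cd36 differed by -0.26, -0.08 and -0.14 without passing. Plin5, Pparg and Ucp3 also held a half-site, did not pass, and are not shown.

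How the members varied from array to array was read from the median over the 31 members of each array's value minus the control mean. The control arrays gave 0.04, -0.14, -0.21, 0.11 and 0.26, so animals given olive oil alone spread over a range of members' levels. The 25 mg/kg arrays gave 0.12, 0.09, -0.15 and -0.05, within that range. The 50 mg/kg arrays gave -0.35, -0.27, -0.21 and -0.14, and the 75 mg/kg arrays -0.36, -0.38, -0.34 and -0.42. Only the 75 mg/kg group lay wholly below the controls. Single members followed the same order: 0 members at 25 mg/kg, 4 at 50 mg/kg and 9 at 75 mg/kg had all arrays below all controls. Over all genes the shares with such non-overlap were 0.43%, 0.986% and 1.31%. The means of 12 members fell from control to 25 to 50 to 75 mg/kg, as did those of 7.62% of all genes.

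**Figure D4:**
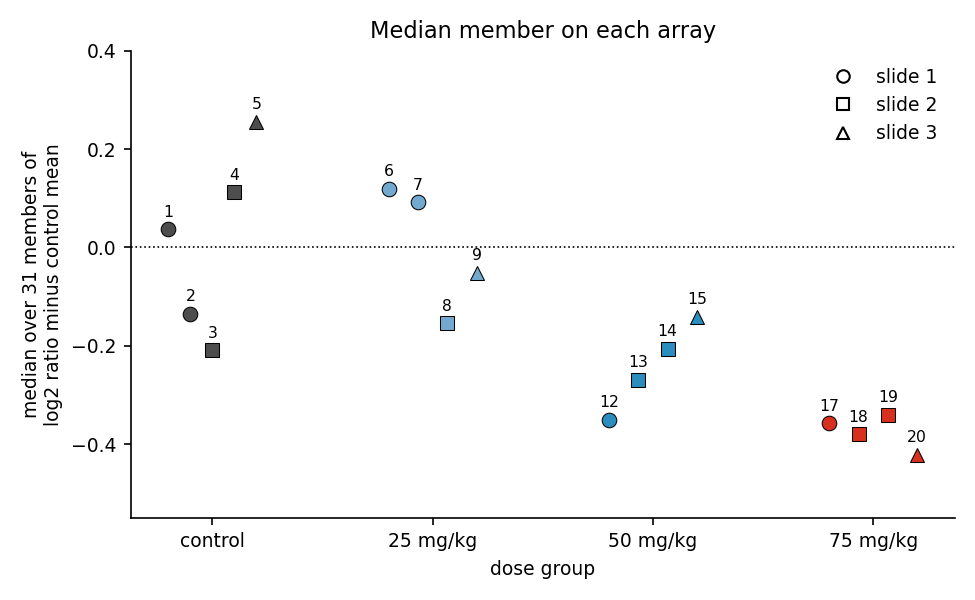
Each point is 1 array, labelled by replicate number and marked by slide; the vertical axis is the median over 31 members of the log2 ratio minus the control mean. The 75 mg/kg arrays lie between -0.42 and -0.34, below the lowest control at -0.21, and the 25 mg/kg arrays lie inside the control range.

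How low the members appear depends on the scaling of the arrays. With median scaling in place of loess, the median of all genes at 75 mg/kg moved to 0.19 and that of the members to -0.01, a gap of -0.20. On that scale 25 of 31 members lay below the median of all genes, and Angptl4 was the 1 member that passed at 75 mg/kg and the 1 that passed along the dose line. Decr1 then differed by -0.57 at 75 mg/kg (adjusted p = 0.473), and the slopes of the 9 members other than Angptl4 called along the line lay between -0.20 and -0.01. The split of all calls also moved, from 45 lower and 191 higher to 3 lower and 142 higher.

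Of the related pathways, peroxisomal and omega oxidation had a median close to that of the members. Of its 15 measured genes, which shorten very long chains and oxidise the far end of the chain, 3 fell at 75 mg/kg, with a median of -0.34. Acaa1a, the peroxisomal thiolase, fell by 0.47 ± 0.10 (adjusted p = 0.0333), Abcd3, a peroxisomal fatty acid transporter, by 0.50 ± 0.10 (adjusted p = 0.0190), and the cytochrome P450 Cyp4b1 by 1.10 ± 0.26 (adjusted p = 0.0491). Cyp4b1 kept its call in 3 of the 17 fits that left out 1 array. Of 16 genes of fatty acid uptake, activation and release, Acsl4, which activates arachidonic acid, fell by 0.64 ± 0.13 (adjusted p = 0.0252), and the list median was -0.20. None of these 4 genes passed without the arrays high in glandular stomach markers (adjusted p = 0.163 to 0.628). Nor did any pass with the compared groups alone (adjusted p = 0.109 to 0.143). Under median scaling alone Acaa1a, Abcd3, Cyp4b1 and Acsl4 differed by -0.05, -0.11, -0.74 and -0.28 (adjusted p = 0.350 to 0.937). The scanner software's processed signals lost Acaa1a, Abcd3 and Cyp4b1 (adjusted p = 0.127, 0.0584 and 0.855). Acaa1a was also lost with the authors' deposited log2 values (adjusted p = 0.0583).

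In the other lists 0 genes passed at 75 mg/kg. Of 5 ketone body genes (median -0.24), Acat1, a mitochondrial thiolase, differed by -0.34 ± 0.09 (adjusted p = 0.104). Of 13 PPAR partners and regulators (median -0.07), the largest differences were -0.36 for Prkaa2 and -0.30 for Sirt1. Of 14 genes of fatty acid synthesis (median -0.09), they were -0.75 for Elovl6 and -0.72 for Acacb. Of 18 genes of the citric acid cycle and respiratory chain (median -0.07), they were -0.52 for Suclg1 (adjusted p = 0.0868) and -0.23 for Atp5a1. Of 11 other genes of the pyruvate dehydrogenase and angiopoietin-like families (median -0.07), Pdha1, a subunit of pyruvate dehydrogenase, differed by -0.39 (adjusted p = 0.0744).

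In whole tissue, fewer cells of a type and less RNA per cell cannot be told apart, and markers of several cell types that burn or store fat also had lower values at 75 mg/kg. Of 10 adipocyte markers 9 were below 0 at 75 mg/kg, with a median of -0.72 (-0.72 at 50 mg/kg and 0.36 at 25 mg/kg), and 0 passed (Adipoq -1.31 ± 1.06, Plin1 -0.59 ± 0.62). Their summed Cy5 signal was 4220 to 21566 in control, 5531 to 30417 at 25 mg/kg, 5429 to 12003 at 50 mg/kg and 6448 to 13681 at 75 mg/kg, with every marker detected on at least 1 array. The control arrays spanned the whole range of the 2 upper doses. All 9 smooth muscle markers were below 0 at 75 mg/kg, with a median of -0.41 (-0.24 at 50 mg/kg and -0.07 at 25 mg/kg), and 0 passed (Acta2 -0.59 ± 0.23). Their sum was 463349 to 763172 in control, 303234 to 832369 at 25 mg/kg, 389835 to 574786 at 50 mg/kg and 290849 to 530360 at 75 mg/kg.

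Of 10 striated muscle markers, 6 were measured, all below 0 with a median of -0.31 and none passing; their sum was 4213 to 10941 in control and 2633 to 6630 at 75 mg/kg, and 2 markers were well above background on no array. Of 6 measured macrophage markers 1 was below 0 (median 0.29), with sums of 3373 to 12336 in control and 4197 to 6640 at 75 mg/kg. Squamous markers had a median of -0.03. Of these 10, Krt6a, a keratin of thickened epithelium, rose along the dose line (adjusted p = 0.0363; 2.08 ± 0.56 at 75 mg/kg, adjusted p = 0.105 there). The part of these cell types in the lower values of the members was not tested.

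**Figure D5:**
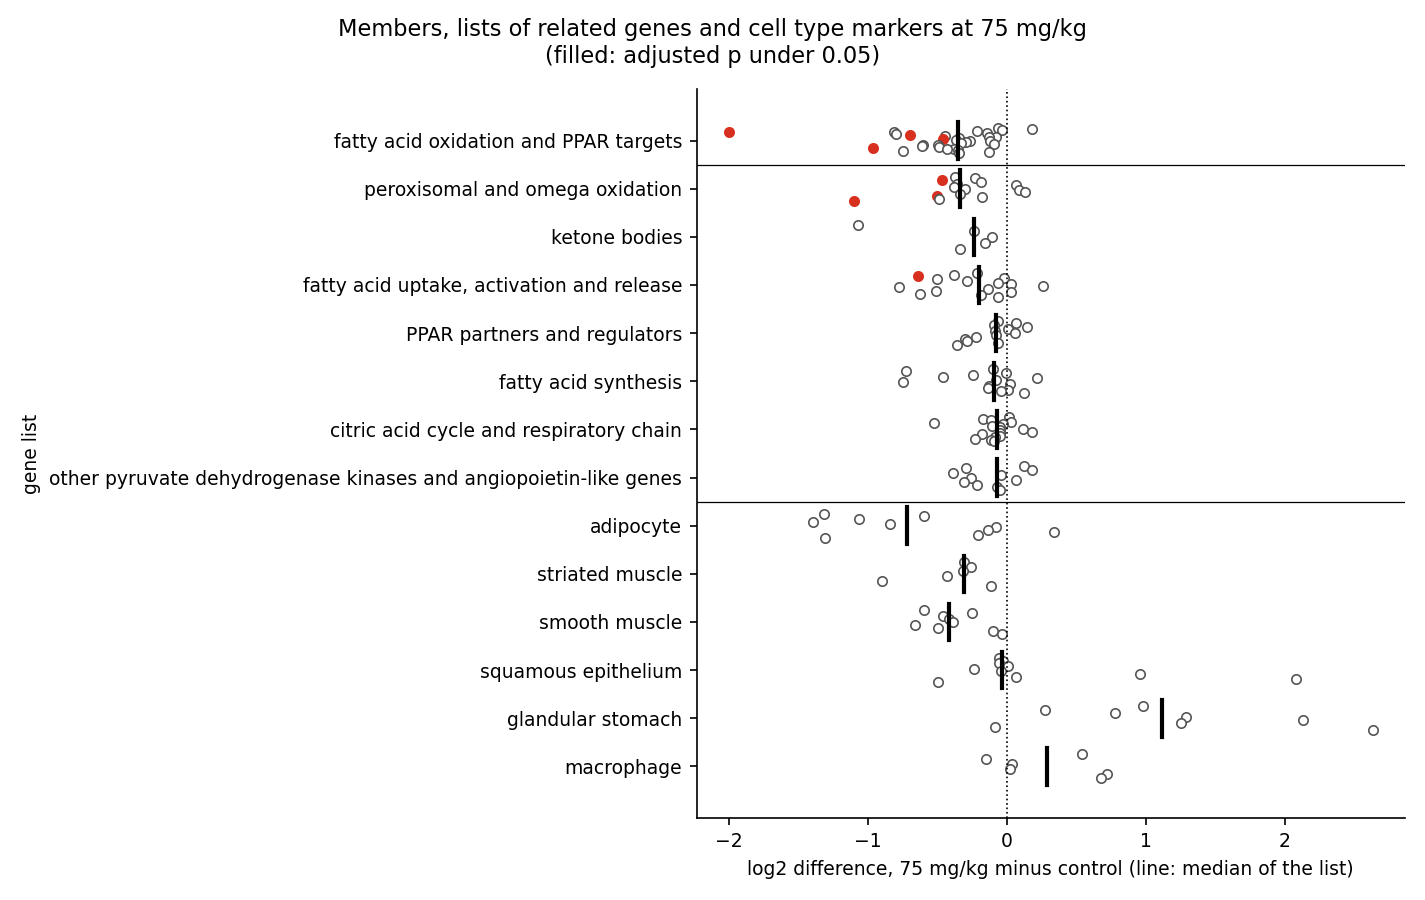
Each point is the fitted log2 difference, 75 mg/kg minus control, of 1 gene, in the 31 members (top), 7 lists of related genes (middle) and 6 lists of cell type markers (bottom); thick lines are list medians and filled points have an adjusted p under 0.05. The members' median of -0.35 lies beside that of peroxisomal and omega oxidation (-0.34), while adipocyte and smooth muscle markers have medians of -0.72 and -0.41 with no filled point.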

How the data were processed

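Per the file headers, the authors deposited spot and background intensity of both channels, written by Feature Extraction 10.7.3.1. The median signals and backgrounds were used. The authors' deposited series table of log2 values, whose scale is not given, tracked the loess-normalized log2 ratio of the uncorrected signals, Cy5 over Cy3 (correlation 0.998 to 0.999 over probes, slope 0.995 to 0.998, column medians -0.03 to -0.02), and was an alternative; 0 of its columns were unmatched. Per the labels, 200 ng of RNA was labelled per array.

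Background was corrected with normexp (offset 50), arrays were normalized by loess, control and outlier spots were left out, and spots of a probe were averaged. Probes that the scanner software called well above background in Cy5 on 4 or more arrays were kept, with the brightest probe per gene. On the arrays, 41.2 to 52.0% of probes were well above background, and their number limits the precision. limma 3.58.1 in R 4.3.3 fitted all 17 arrays with 4 group means (lmFit, eBayes, two-sided), and a line on dose. On simulated data for 75 mg/kg against control (21405 genes), 44.8%, 77.6% and 100% of changes of 0.5, 1 and 2 (log2) were recovered. The simulated noise was normal and independent between genes and arrays, without slide or tissue differences, so these shares need not hold for the real arrays. The array design names an older build, so names came through RefSeq accessions (GRCm38.p6): of 55681 probes, 26413 had 1 symbol, 0 several and 29268 none.

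The members and lists were chosen with earlier results of these data known. Genes described singly were the members past the threshold in any comparison; from related lists, those that passed at 75 mg/kg or else the 2 with the largest difference. Of the genes this rule names, 2 are not reported here. Pdk4, Fabp3 and other members outside that rule were given values after these were seen. The design text calls the samples biological replicates. Each slide was read from the array barcode in the file headers.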

Additional observations from a re-analysis of the deposited data

Results flagged for a closer look

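Across 124 sets of arrays (31 members in 4 groups), 6 held an array far from the rest by Dixon's criterion, where chance gives about 1 in 20. Among members at 25 mg/kg, Ppard was low in replicate 8 (0.71, the nearest array at 1.34), Ucp3 was low in replicate 8 (0.44, nearest 0.83), Cpt2 was low in replicate 7 (1.41, nearest 1.67) and Etfa was low in replicate 9 (1.10, nearest 1.30). At 75 mg/kg, Cd36 was high in replicate 17 (1.22, nearest 0.61) and Eci2 was high in replicate 19 (0.41, nearest -0.15).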

How the results depend on the processing

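No paired analysis was possible because the groups share no replicate numbers. Counts of members past the threshold at 75 mg/kg were 1 with arrays scaled by their medians alone, 8 with the Cy5 channel alone, 10 and 11 with slide as a fixed or random block, and 2 with the compared groups alone, against 4 as reported; without single arrays they were 2 to 7 (2 without control replicate 1 or 4, or replicate 18 or 20; 7 without control replicate 2; 6 without replicate 19). Along the dose line the count was 1 with median scaling, and 3 to 13 without single arrays (3 without replicate 18; 4 without control replicate 1 or 4 or replicate 20; 5 without replicate 17; 6 without replicate 6, 7, 8, 9, 12 or 14 or control replicate 5), against 10. For 75 against 25 mg/kg, 1 member passed with the Cy5 channel alone, either slide block or array weights, and 0 to 1 without single arrays. At 50 mg/kg, 1 passed with the compared groups alone or array weights. An alternative chosen after seeing the data, without the 4 arrays above all controls in glandular stomach markers, gave 0 at 75 mg/kg and 2 along the line, with a Cpt1a difference at 75 mg/kg of 0.029.

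With median scaling, which moved the median of all genes at 75 mg/kg to 0.19, the median member difference was -0.0094 at 75, -0.048 at 50 and 0.24 at 25 mg/kg. Differences at 75 mg/kg then lay above 0 for Ppara (0.23), Pparg (0.25), Ppargc1a (0.0080), Cd36 (0.11), Cpt1a (0.26), Cpt2 (0.23), Acadvl (0.14), Acads (0.11), Hadha (0.039), Hadhb (0.058), Hadh (0.29), Etfa (0.019), Etfdh (0.0057) and Acot2 (0.020). Slopes per 25 mg/kg did so for Ppara (0.045), Pparg (0.059), Ppargc1a (0.0046), Cd36 (0.018), Cpt1a (0.053), Cpt2 (0.056), Acadvl (0.037), Acads (0.021), Hadhb (0.00088) and Hadh (0.084). The slope of Ppard was -0.013 with the Cy5 channel alone and -0.0039 to 0.059 without single arrays. The difference of Ppara at 75 mg/kg was -0.19 to 0.051, and that of Cpt1a -0.15 to 0.0024, without single arrays. Over the 12 other settings that of Ppara was -0.29 to 0.23. The cause of these changes was not tested.

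Angptl4 kept its call at 75 mg/kg in 12 of 12 other settings and 17 of 17 fits without 1 array, and Plin2 in 9 and 17; without the 4 arrays high in glandular markers neither passed. Over all genes, 236 passed at 75 mg/kg and 288 along the line, against 145 to 424 and 172 to 549 in the other settings and 119 to 289 and 190 to 403 without single arrays; at 50 and 25 mg/kg and for 75 against 25 mg/kg the counts of 10, 3 and 13 ranged over 1 to 80, 0 to 3 and 0 to 37. Of calls at 75 mg/kg, 80.9% were higher as reported and 97.9% with median scaling. Dim probes limit Cpt1b and Plin5 most.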
